A study of Mus musculus with 12 samples.

Results

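The effect of the Schmid mutation on gene expression in the growth plate hypertrophic zone was compared with the effect of the Cog transgene, as the difference (Schmid minus its wildtype) minus (Cog minus its wildtype). All 12 arrays of the 12 in the series entered this comparison, 3 to each of 4 groups, and it covered 41174 probes, or 27670 genes when each gene was read at its brightest probe. Schmid mice carry a knocked-in Col10a1 p.Asn617Lys allele, which the study describes as homozygous and which lies in the trimerization domain of their own collagen X. Cog mice (ColXTgcog) carry a transgene in which the Col10a1 promoter drives the misfolding Tgcog form of thyroglobulin, a thyroid protein that cartilage does not normally make; hemizygous and homozygous mice were not told apart by the study, and the founder line is not given in the labels. Each mutant group was set against wildtype littermates of its own background, called Wt (Schmid) and Wt (Cog) here. All mice were 14 days old, and the hypertrophic zone of 1 tibia per mouse was cut out by hand from frozen sections, so each array stands for 1 mouse. The RNA went through 2 rounds of linear amplification before labelling with Cy3.

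Secreted proteins fold in the endoplasmic reticulum (ER). When misfolded protein accumulates there, 3 sensors (Atf6, Ire1 and Perk) start the unfolded protein response: Atf6 and the spliced form of Xbp1 raise chaperones and the machinery of ER-associated degradation (ERAD), which passes misfolded protein to the proteasome, while Perk slows translation and favours Atf4, a transcription factor that acts through Chop (gene Ddit3) and on genes of amino acid supply. The hypertrophic zone is the last layer of growth plate cartilage before bone, where chondrocytes enlarge, secrete collagen X, mineralize their matrix and meet invading vessels. Both mouse lines express a misfolding secretory protein in these cells, one of them a matrix protein with a place in that tissue and the other a protein with none. The comparison asks which changes the 2 proteins share.

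The arrays lay on 4 slides that follow the groups closely. Slide 1 held the 3 Schmid arrays, slide 2 held Wt (Schmid) replicates 1 and 2, slide 3 held Wt (Schmid) replicate 3 with the 3 Cog arrays, and slide 4 held the 3 Wt (Cog) arrays. Slide and genotype therefore cannot be told apart for most of the comparison, and the p-values measure the spread between the mice of a group on these slides. Slides 1 and 2 were scanned on 1 day and slides 3 and 4 on another. Between 39.6% and 61.8% of the spots on an array were well above background. The median raw signal of the negative control spots was lowest on the 3 Schmid arrays (from 202 up) and started at 977 on Wt (Schmid), 999 on Wt (Cog) and 1261 on Cog. The 13 defining markers of hypertrophic chondrocytes and chondrocytes, among them Col10a1, Spp1, Mmp13, Col2a1 and Sox9, were above background on all 12 arrays, as the label would have it. The number of arrays limits the precision: the median 95% interval of the difference reached 0.78 on the log2 scale either way among genes higher in both mutants.

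Thyroglobulin separated the groups as labelled. The log2 signal of Tg was 17.79, 17.84 and 17.95 on the Cog arrays and lay between 9.55 and 10.22 on the other 9. Its difference between the mutants was -8 (95% interval -8.47 to -7.54, adjusted p = 3.8e-08), and the other Tg probe gave -7.90. Col10a1, which both mouse lines target or borrow, had a log2 signal of 14.95, 13.99 and 13.69 in Schmid, 15.79, 13.91 and 12.99 in Wt (Schmid), 14.71, 15.06 and 15.40 in Cog and 14.67, 13.75 and 13.76 in Wt (Cog). Its groups overlapped, and its difference between the mutants, -1.01 with an interval of -2.94 to 0.92 (adjusted p = 0.45), does not settle whether the 2 mutants differ in it.

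A change is called below when limma's adjusted p was 0.05 or less and the change was at least 2-fold; values are differences on the log2 scale, so 1 is 2-fold. The Schmid mutation gave 1606 genes called higher (5.8% of the 27670) and 1597 called lower (5.77%), and the Cog transgene, whose copy number was not separated, gave 525 higher (1.9%) and 233 lower (0.842%). The difference between the 2 effects was itself called for 1212 genes with Schmid above Cog (4.38%) and for 1956 with Schmid below Cog (7.07%). Of these differences, 1302 concerned genes called in neither mutant on its own. Of 1461 genes called higher in Schmid alone the difference was called for 545, and of 1435 called lower in Schmid alone for 883. A call in 1 mutant alone therefore does not show that the mutants differ. Genes called higher in both mutants numbered 132 (0.477% of all genes), which is 8.22% of those higher in Schmid and 25.1% of those higher in Cog. Genes called lower in both numbered 57 (0.206%), or 3.57% and 24.5% of the respective lists. Across all genes the 2 effects correlated with r = 0.09, and across the 10397 genes well above background on all 12 arrays with r = 0.18. These correlations are across genes of one set of samples, and genes are not independent replicates.

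**Figure D1:**
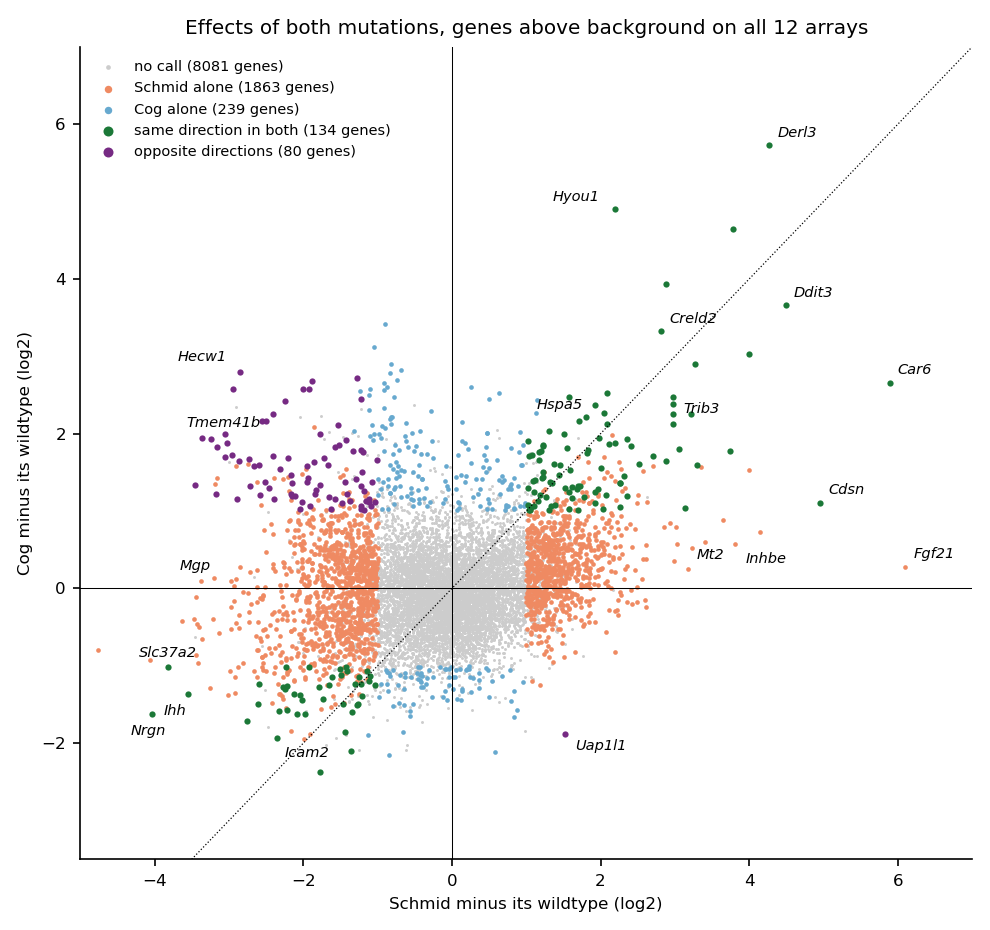
Effect of the Schmid mutation (x axis, log2) against the effect of the Cog transgene (y axis, log2), one point per gene, for the 10397 genes well above background on all 12 arrays; colours give the calls and the dotted line marks equal effects. The 134 genes changed in the same direction in both (green) run along the line, 1863 genes changed in Schmid alone (orange) spread along the x axis, 239 changed in Cog alone (blue), and the 80 genes changed in opposite directions (purple) lie almost all at the upper left.

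The genes that rose in both mutants included ER chaperones, ERAD components and genes of the Chop branch. Over the 132 genes the median effect was 1.85 in Schmid and 1.6 in Cog, and the median difference was 0.16, values that the requirement of a call in both mutants largely sets. Schmid had the larger effect in 81 of them. The difference was called for 14 of the 132, in 11 with Schmid larger, and for 31 the whole 95% interval of the difference lay within 2-fold either way. In all 132 the 3 mutant arrays were separate from their 3 wildtype arrays in both lines, which the calls largely fix. The count rests on the Cog side: without Wt (Cog) replicate 2 it was 62, and without Wt (Schmid) replicate 1 it was 157. Of the 71 genes that also had another probe, 9 had another probe called higher in both, among them Dnajb9, Dnajc3, Ero1b, Hsp90b1 and Pdia6.

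Hspa5, which encodes BiP, the ER's main Hsp70 chaperone and the protein that holds the 3 sensors inactive, was among the genes that moved alike. Its log2 signal was 18.14, 18.50 and 18.52 in Schmid, 16.99, 15.96 and 16.08 in Wt (Schmid), 18.67, 18.98 and 18.47 in Cog and 16.98, 16.13 and 16.19 in Wt (Cog). Both mutant groups were above both wildtype groups without overlap, and the 2 mutant groups overlapped each other. The effect was 2.04 in Schmid and 2.27 in Cog, and the difference of -0.23 had an interval of -1.18 to 0.72 (adjusted p = 0.74). Manf, an ER-resident protein released under stress, gave 1.45 and 1.6 with a difference of -0.14 (interval -0.71 to 0.43), which stays within 2-fold. Hsp90b1, the ER's Hsp90, gave 1.20 and 1.77 (difference -0.57, interval -1.35 to 0.20). Creld2, a cysteine-rich ER protein, gave 2.81 and 3.33 (difference -0.52, interval -1.28 to 0.25). Calr, the lectin chaperone calreticulin, was called in Cog alone at 1.04, with 0.84 in Schmid (adjusted p = 0.0014 but under 2-fold), and its difference of -0.20 had an interval of -0.59 to 0.20, so this pair of calls marks no difference.

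Some of these chaperones rose further in Cog. Hyou1, a large Hsp70-related chaperone that exchanges nucleotide on BiP, had a log2 signal of 14.16, 15.67 and 15.81 in Schmid, 13.18, 12.65 and 13.26 in Wt (Schmid), 16.70, 16.60 and 16.53 in Cog and 11.55, 11.67 and 11.89 in Wt (Cog). The Cog arrays were the highest and the Wt (Cog) arrays the lowest of the 12, with no overlap between any pair of groups. Its effects were 2.19 and 4.90, and the difference of -2.72 (interval -3.86 to -1.57, adjusted p = 0.0071) kept its call in all 28 alternative settings that gave a value; a second probe was near background. Of this difference 1.32 was a gap between the 2 wildtype groups. Derl3, a channel component of ERAD, rose by 4.27 in Schmid and 5.73 in Cog (difference -1.46, adjusted p = 0.022), with log2 signals of 15.51 to 15.69 in Schmid and 16.78 to 17.06 in Cog above 10.74 to 11.90 in the wildtypes. The Derl3 call was lost in 5 of 27 settings, all of them changes of scaling or a correction for array position. Sdf2l1, a partner of ER Hsp40 proteins, gave 2.88 and 3.93 with a difference of -1.05 at an adjusted p of 0.050, and that call was lost in 21 of 28 settings, leaving out any of 10 single arrays among them.

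**Figure D2:**
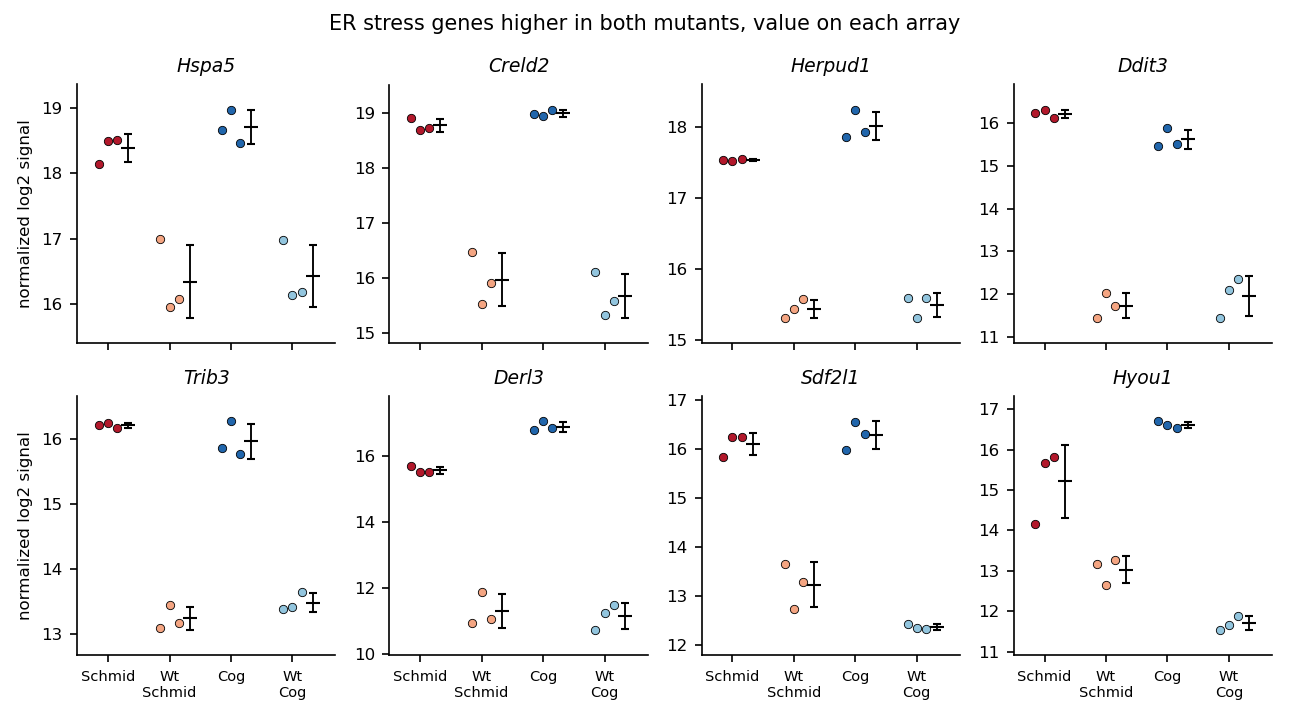
Normalized log2 signal (y axis) of 8 ER stress genes on each of the 12 arrays, by group; each point is 1 mouse, and the bars give the mean and SD of 3. In every panel both mutant groups lie above their wildtypes. Hspa5, Creld2 and Trib3 reach like levels in both mutants, while Derl3 and Hyou1 are higher in Cog. The Cog arrays of Herpud1 also lie above its Schmid arrays, by less than 2-fold.

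Of all genes 5.8% were called higher in Schmid and 1.9% in Cog. By list, 10 of the 37 measured ER lumen chaperones rose in Schmid and 12 in Cog, 9 of them in both. The difference was called above in 1 (Creld1, at 2.05, lost in 13 of 27 settings, leaving out any of 10 single arrays among them) and below in 2 (Hyou1 and Sdf2l1), and the median difference was -0.30 beside -0.05 over all genes. With both signals scaled to a common 75th percentile the list's median (-0.12 for normexp, -0.28 for the processed signal) lay above that of all genes (-0.30 and -0.60), so relative to all genes its direction is not settled. Of the 25 disulfide isomerases and ER oxidases, 6 rose and 2 fell in Schmid and 5 rose in Cog, 3 in both. Pdia6 gave 1.44 and 1.46 with a difference of -0.02, and 2 other probes were called higher in both as well, one of them further in Cog (1.26 and 2.79, difference -1.54, adjusted p = 0.026). Pdia4 gave 4 and 3.03 and Ero1b 3.08 and 3.37, both without a called difference. The exception was Ero1a, an ER oxidase that hypoxia also raises. It gave 3.03 in Schmid and 0.57 in Cog, and the difference of 2.46 (interval 1.69 to 3.23, adjusted p = 0.0017) was called in all 28 settings.

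Among the 38 ERAD genes, 12 rose and 1 fell in Schmid and 4 rose in Cog, all 4 of these in both: Derl3, Herpud1, Sel1l and Syvn1. The difference was called above in 2 ERAD genes and below in 3, beside 4.38% and 7.07% of all genes. Herpud1, which gathers ERAD components at the membrane, had a log2 signal of 17.53, 17.52 and 17.54 in Schmid against 15.30, 15.43 and 15.57, and 17.86, 18.24 and 17.93 in Cog against 15.59, 15.30 and 15.59. Its effects of 2.09 and 2.52 differed by -0.42, with an interval of -0.84 to -0.01 that lies within 2-fold. Syvn1, the ubiquitin ligase of this complex, gave 1.51 and 1.99, and Sel1l, its membrane partner, gave 2.20 and 1.88. Stub1, a cytosolic ubiquitin ligase that works with Hsp70, rose in Schmid alone, at 1.06 against -0.70 (difference 1.76, adjusted p = 0.0034). Rnf5 went the other way, with a difference of -2.20 that was called in all 27 settings that gave a value. Of the 14 stress sensors and related CREB3 factors, 6 rose in Schmid and 2 of these, Atf6 and Wfs1, in Cog too. Wfs1, an ER membrane protein that restrains Atf6, gave 1.83 and 1.79, a difference of 0.04 with an interval of -0.70 to 0.78. Xbp1 was called in Schmid at 1.55 and stood at 0.87 in Cog (adjusted p = 0.25), but its difference of 0.69 had an interval of -0.57 to 1.94, and the mRNA level says nothing of its splicing.

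Genes whose promoter holds the ER stress response element (ERSE) were often among those that rose in both mutants. The element is the pair CCAAT and CCACG 9 bases apart that Atf6 binds together with NF-Y. Promoter windows were those of RefSeq (GRCm38.p6), from 250 bases before to 50 after the start of each gene, read on both strands. ERSE was present in 37 of 27025 promoters (0.137%), and 24 of those genes were measured. Of the 24, 8 rose in both mutants (Creld2, Derl3, Dnajc3, Ero1b, Hsp90b1, Hspa5, Pdia6 and Syvn1), against 91 of the 15453 measured genes with a promoter. No gene with ERSE rose in Schmid alone. Alg12, Calr and Canx were called higher in Cog alone, and the median effects were 0.66 in Schmid and 0.65 in Cog. A variant, ERSE-II (ATTGG and CCACG with 1 base between), was in 12 promoters (0.0444%), and of its 9 measured genes Herpud1 and Dnajb11 rose in both and Lgalsl (1.57) and Rcl1 (2.44) in Schmid alone. A match of letters is a description of the window, not a binding site. The stretches below are shown because they belong to the shared genes; each is 60 bases, 5′ to 3′ along its gene, upstream of the start, with the element's paired letters in capitals (on the other strand they read CGTGG and ATTGG). Hspa5 lies at chr2:34772004-34772063 (+), Creld2 at chr15:88819499-88819558 (+), Derl3 at chr10:75893221-75893280 (+), Syvn1 at chr19:6046511-6046570 (+), Hsp90b1 at chr10:86705513-86705572 (-) and the ERSE-II of Herpud1 at chr8:94386352-94386411 (+).
Hspa5: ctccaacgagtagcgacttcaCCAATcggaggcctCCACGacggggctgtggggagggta
Creld2: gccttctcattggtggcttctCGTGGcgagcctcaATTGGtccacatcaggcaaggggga
Derl3: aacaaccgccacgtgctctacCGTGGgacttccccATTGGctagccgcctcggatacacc
Syvn1: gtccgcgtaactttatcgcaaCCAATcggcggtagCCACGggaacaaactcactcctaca
Hsp90b1: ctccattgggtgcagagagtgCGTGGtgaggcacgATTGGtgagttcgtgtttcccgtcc
Herpud1: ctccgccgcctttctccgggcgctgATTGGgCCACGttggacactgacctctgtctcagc

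The Perk, Atf4 and Chop branch rose in both mutants and had more members called in Schmid. Of its 30 measured genes, 18 rose in Schmid and 9 in Cog, all 9 of these in both, none fell in either, and the difference was called above in 3. The median effect of the branch was 1.28 in Schmid and 0.49 in Cog. Over all genes 5.8% rose in Schmid and 1.9% in Cog, and the difference was called above for 4.38%. Ddit3, which encodes Chop, had a log2 signal of 16.23, 16.31 and 16.12 in Schmid, 11.44, 12.03 and 11.72 in Wt (Schmid), 15.46, 15.88 and 15.51 in Cog and 11.44, 12.09 and 12.36 in Wt (Cog). The Schmid arrays were the highest and the wildtypes overlapped. Its effects of 4.49 and 3.66 differed by 0.84 (interval 0.10 to 1.57, adjusted p = 0.11), a difference that was called only without Wt (Cog) replicate 1 (1.10). Trib3, a pseudokinase that Chop induces, gave 2.97 and 2.48 with a difference of 0.48 (interval 0.01 to 0.96) within 2-fold; its other probe was at 0.43 and -0.73 with no call in either mutant but a called difference of 1.16 (adjusted p = 0.026), so the probes disagree. Slc7a11, the cystine importer, gave 2.75 and 2.58; Wt (Schmid) was not above background on any array, so its rise in Schmid was at least 4.25-fold. Gdf15, a secreted stress factor, gave 3.22 and 2.26, and Steap1, a metalloreductase, gave 2.97 and 2.39. Atf4 itself, whose control is at translation, stood at -0.19 and -0.15.

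Fgf21, a hormone of the FGF family that Atf4 raises in stressed cells, had the largest difference with Schmid above Cog among genes well above background on all 12 arrays. Its log2 signal was 16.17, 16.05 and 15.78 in Schmid, 9.60, 9.92 and 10.19 in Wt (Schmid), 10.36, 11.00 and 10.58 in Cog and 10.96, 9.97 and 10.19 in Wt (Cog). The Schmid arrays stood apart, and Cog overlapped its wildtype. The effect was 6.10 in Schmid and 0.28 in Cog (adjusted p = 0.60), a difference of 5.82 (interval 4.98 to 6.66, adjusted p = 0.00012), or 56.6-fold, called in all 28 settings with a range of 5.32 to 6.48. A second Fgf21 probe read 17.69, 17.56 and 17.45 in Schmid and 10.01, 10.74 and 11.21 in Cog, with no wildtype array above background. At that probe the rise was at least 261-fold in Schmid and at least 2.52-fold in Cog (adjusted p = 0.0084), so the 2 probes disagree on whether Cog changed and both give a far larger change in Schmid.

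Other genes among the 10 largest differences with Schmid above Cog were raised in Schmid alone or further in Schmid. Inhbe, a subunit of activin E, read 14.42, 14.83 and 14.12 in Schmid against 10.48, 10.90 and 10.55, and 11.41, 11.50 and 11.42 in Cog against 10.54, 10.90 and 11.18. Its effects were 3.81 and 0.57, and the difference of 3.24 had an adjusted p of 0.00043. Car6, a secreted carbonic anhydrase that has a form made under Chop control, rose in both, by 5.89 and 2.66, with a difference of 3.22 (adjusted p = 0.00051). Its Cog arrays, at 13.47 to 14.21, lay between the Schmid arrays at 16.56 to 16.81 and the wildtypes at 10.63 to 11.54. Cdsn, an adhesion protein of cornified skin, rose in both at 4.95 and 1.11, with a difference of 3.84 (adjusted p = 0.00018), and Plet1, an epithelial surface protein, rose in Schmid at 4.15 with 0.73 in Cog (difference 3.42, adjusted p = 0.0055). Sft2d2, a vesicle transport protein, gave 3.41 and 0.60, but its difference of 2.81 lost the call in 8 of 28 settings, among them without Schmid replicate 1 or 2, Cog replicate 2, or Wt (Cog) replicate 1 or 2.

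The metallothioneins, small proteins that bind zinc and copper, rose in Schmid only. Mt1 read 16.13, 16.92 and 16.65 in Schmid, 14.17, 14.59 and 14.35 in Wt (Schmid), 12.31, 12.62 and 12.83 in Cog and 12.99, 13.55 and 13.68 in Wt (Cog). Its effect was 2.19 in Schmid and -0.82 in Cog (adjusted p = 0.086), and the difference of 3.01 (adjusted p = 0.00081) was called in all 27 settings that gave a value. Mt2 gave 3.18 and 0.25, with a difference of 2.93 (adjusted p = 0.010). The wildtype groups differed as well, Wt (Schmid) being above Wt (Cog) by 0.97 for Mt1 and 1.42 for Mt2, which lessens the difference and does not add to it. Across all genes 5.8% rose in Schmid and 1.9% in Cog, and the difference was called above for 4.38%. Over the 40 oxidative stress defence genes, 7 rose and 1 fell in Schmid, 1 rose in Cog, and the difference was called above in 7 and below in none. The gene that rose in both was Hmox1, heme oxygenase, at 2.36 and 1.20; its called difference of 1.16 was lost in 13 of 27 settings, including without any 1 of 9 single arrays.

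**Figure D3:**
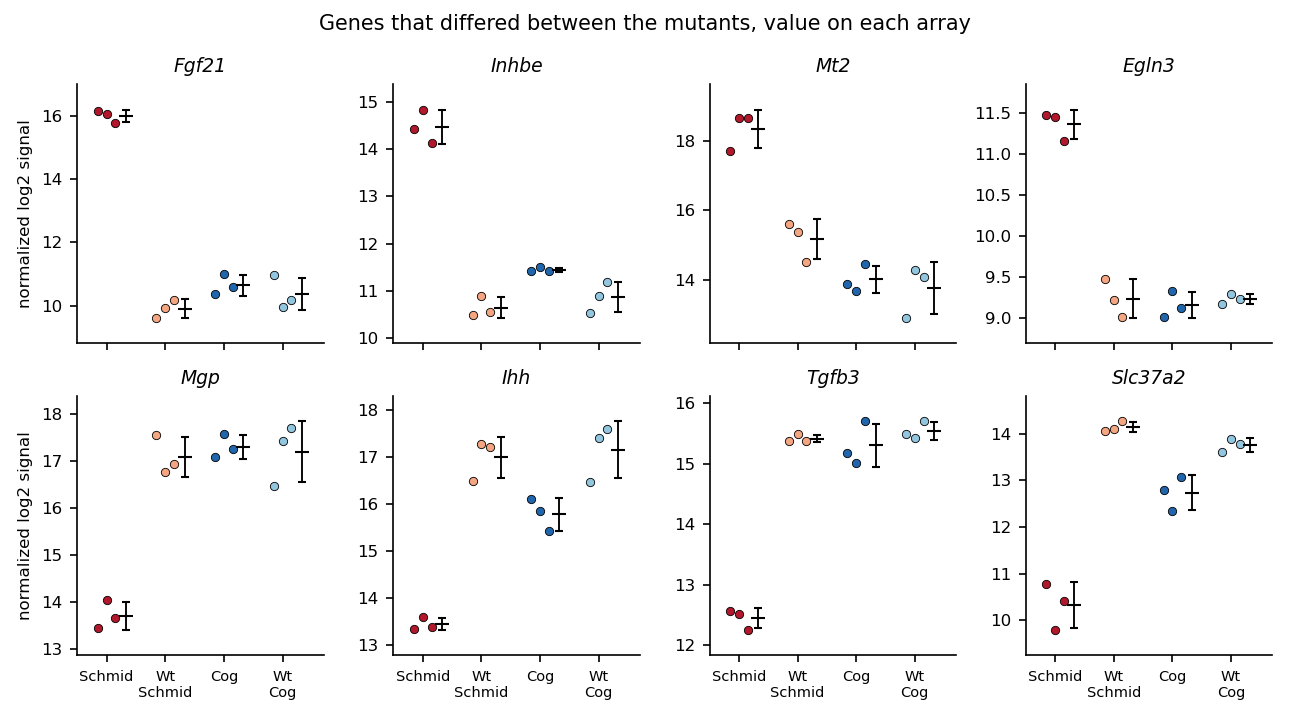
Normalized log2 signal (y axis) on each of the 12 arrays for 4 genes higher and 4 lower in Schmid than in Cog relative to their wildtypes; each point is 1 mouse, and the bars give the mean and SD of 3. The 3 Schmid arrays stand apart from the other 9 in all 8 panels; Cog lies below its wildtype for Ihh and Slc37a2 and overlaps it for Fgf21, Mt2, Egln3, Mgp and Tgfb3.

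Genes that supply amino acids to protein synthesis had more members called in Schmid than in Cog. Of 26 enzymes of amino acid synthesis and one-carbon metabolism, 13 rose and 1 fell in Schmid, 5 rose in Cog, and 4 rose in both (Gpt2, Got1, Phgdh and Bcat1). The difference was called above in 5 and below in 1, beside 4.38% and 7.07% of all genes. With the processed signal at a common 75th percentile 1 was called higher in Cog, and with the row trend removed 2 were. Got1, the cytosolic aspartate aminotransferase, gave 2.26 and 1.36 (difference 0.90, interval 0.20 to 1.6). Pck2, the mitochondrial PEP carboxykinase, rose in Schmid alone, reading 15.82, 15.84 and 15.69 against 13.48, 14.41 and 13.59, with Cog at 14.63, 14.31 and 13.81 against 14.08, 13.56 and 13.94. Its difference of 1.56 (adjusted p = 0.021) was called in all 27 settings. Psat1, a serine synthesis enzyme, gave 2.61 and -0.24, but the call of its difference of 2.85 was lost in 8 of 27 settings, including without any single Schmid array, Wt (Schmid) replicate 2 or 3, Cog replicate 3 or Wt (Cog) replicate 2.

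Of the 20 aminoacyl-tRNA synthetases, 9 rose in Schmid and 2 in Cog, both of these (Lars and Wars) in both mutants, and the difference was called above in 3. Lars gave 1.62 and 1.31, a difference of 0.31 within 2-fold (interval -0.14 to 0.77), whereas Gars gave 1.62 and -0.06 (difference 1.69, adjusted p = 0.017) and Iars 1.71 and 0.25 (difference 1.46, adjusted p = 0.012). Among 24 amino acid transporters, 7 rose and 5 fell in Schmid and 3 rose in Cog, all 3 in both: Slc7a11, Slc3a2 and Slc7a3. The difference was called above in 3 and below in 3 of these transporters, with a median of -0.26. Of all genes it was called above for 4.38% and below for 7.07%. Slc3a2, the shared heavy chain of several transporters, gave 1.62 and 1.17 (difference 0.45, interval -0.03 to 0.92). Slc38a1, a glutamine transporter, read 13.56, 13.07 and 13.41 in Schmid and between 10.47 and 11.23 on all other 9 arrays. Its difference of 2.75 (adjusted p = 0.0013) was called in all 27 settings, although of its other probes one moved the other way in Schmid, at -1.16. Other transporters had Schmid below Cog. Slc38a7 had a difference of -2.74, called in all 26 settings that gave a value. Slc7a1 had one of -3.04, which lost the call in 7 of 27.

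The promoter element of this branch is the C/EBP-ATF response element (CARE, TGATGCAA), which was in 279 of the 27025 promoters (1.03%). Of its 135 measured genes, 24 rose and 13 fell in Schmid, 10 rose and none fell in Cog, beside 1041 higher in Schmid and 326 higher in Cog of the 15453, and 7 rose in both (Atf3, Chac1, Chchd10, Got1, Hax1, Herpud1 and Slc7a11). Of the 15453, 1039 fell in Schmid. The difference was called above in 12 genes with CARE, Fgf21 and Inhbe among them, and below in 6. It was called above in 780 and below in 1162 of the 15453. Genes with these letters thus included both shared and Schmid-weighted changes, but as a set they hardly moved. Their median effects were -0.05 in Schmid and -0.01 in Cog, and the median difference was -0.02. Over all genes with a promoter these medians were -0.07, -0.03 and 0.00. The stretches are given with the letters in capitals, TTGCATCA being the same element on the other strand: Fgf21 at chr7:45615596-45615655 (-), Inhbe at chr10:127351996-127352055 (-), Slc7a11 at chr3:50443627-50443686 (-), with 2 matches, and Got1 at chr19:43524674-43524733 (-). The difference between the mutants was called for the first pair and not for the second, where the interval of Got1 lay above 0 and Slc7a11 was not above background in Wt (Schmid).
Fgf21: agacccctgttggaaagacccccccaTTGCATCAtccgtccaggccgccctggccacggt
Inhbe: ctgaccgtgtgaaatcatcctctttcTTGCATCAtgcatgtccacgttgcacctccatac
Slc7a11: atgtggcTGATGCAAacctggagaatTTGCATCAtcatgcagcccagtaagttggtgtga
Got1: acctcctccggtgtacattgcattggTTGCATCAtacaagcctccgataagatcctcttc

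Heat shock proteins, mitochondrial chaperones, ribosome biogenesis genes and hypoxia genes were called higher in Schmid more often than the 5.8% of all genes. In Cog 1.9% of all genes were called higher, so few or no calls in a list of this size are near that share. Of 42 cytosolic heat shock proteins, 7 rose and 1 fell in Schmid, none was called in Cog, and the difference was called above in 7 and below in 3. Hspb8, a small heat shock protein, read 12.86, 12.23 and 12.39 in Schmid, 10.49, 9.75 and 9.5 in Wt (Schmid), 11.67, 12.22 and 11.38 in Cog and 11.84, 11.87 and 11.56 in Wt (Cog). Its difference of 2.57 (adjusted p = 0.0029) held a gap of -1.84 between the wildtype groups: the Schmid arrays exceeded the Cog arrays by much less than the difference. Hspa4, an Hsp110 chaperone, gave 1.85 and -0.16 (difference 2.01, adjusted p = 0.012). Of 34 mitochondrial chaperones and proteases, 13 rose and 1 fell in Schmid and none was called in Cog. The difference was called above in 7 and below in 2, and the medians were 0.52 in Schmid and -0.01 in Cog. Lonp1, a matrix protease, gave 1.82 and 0.38 (difference 1.45, adjusted p = 0.0044). The respiratory chain did not share this: of its 76 genes 1 rose and 1 fell in Schmid, none was called in Cog or for the difference, and the medians were -0.41 and -0.34, both below those of all genes (-0.09 and 0.00).

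Ribosome biogenesis genes rose in 27 of 73 cases and fell in 1 in Schmid, with 2 risen in Cog, and the difference was called above in 12 and below in 2. Their median effects were 0.79 and 0.20. Pes1, which processes the large subunit's RNA, gave 1.72 and -0.15 (difference 1.87, adjusted p = 0.013), whereas Nop58, a core snoRNP protein, rose in both at 1.93 and 1.10 (difference 0.83, adjusted p = 0.051). Of 44 translation initiation factors, 8 rose in Schmid and 1, Eif1a, in both; the difference was called above in 7. The 80 cytosolic ribosomal proteins had no call in either mutant, their medians were 0.00 and 0.03, and the difference was called above in 3 and below in 3. Of 40 proteasome subunits, 3 rose in Schmid, near the share of all genes, none in Cog, and the difference was called above in 3, with medians of 0.36 and -0.15. In ER to Golgi transport, 12 of 51 genes rose and 1 fell in Schmid and 3 rose in Cog, with the difference called above in 5 and below in 2. Mia3, which loads collagen into transport carriers, rose in both at 1.69 and 1.02 (difference 0.67, interval 0.09 to 1.25, adjusted p = 0.11).

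The hypoxia response had the highest median difference of the lists named here, 1.15, from a median effect of 1.01 in Schmid and -0.20 in Cog. In this list the median gap was 0.87 between the mutant groups and -0.53 between the wildtype groups, beside -0.07 and 0 over all genes. Of its 26 genes, 10 rose and 1 fell in Schmid, 1 rose and 1 fell in Cog, and the difference was called above in 7 and below in none. The median difference ranged from 0.70 to 1.52 over the 8 settings. Ndrg1, a hypoxia-induced growth regulator, read 16.54, 16.43 and 16.23 in Schmid, 13.04, 13.34 and 13.42 in Wt (Schmid), 14.59, 15.32 and 14.95 in Cog and 13.77, 14.24 and 13.74 in Wt (Cog). It rose in both, by 3.14 and 1.04, and the difference of 2.10 (adjusted p = 0.0016) was called in all 28 settings. Egln3, the prolyl hydroxylase that hypoxia itself induces, read 11.47, 11.45 and 11.16 in Schmid and between 9.01 and 9.48 on the other 9 arrays, where 1 array was above background, so the Cog effect on it was not measured. Car9, a surface carbonic anhydrase, gave 1.5 in Schmid and -0.71 in Cog (difference 2.20, adjusted p = 0.0028), with 1 Cog array above background. Epas1, which encodes HIF-2 alpha and is high in endothelium, went the other way in both, at -2.24 and -1.46. Of 29 glycolysis genes, 4 rose and 2 fell in Schmid, and Ldhb fell in both by the same amount, at -1.10 and -1.13 (interval of the difference -0.36 to 0.42).

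**Figure D4:**
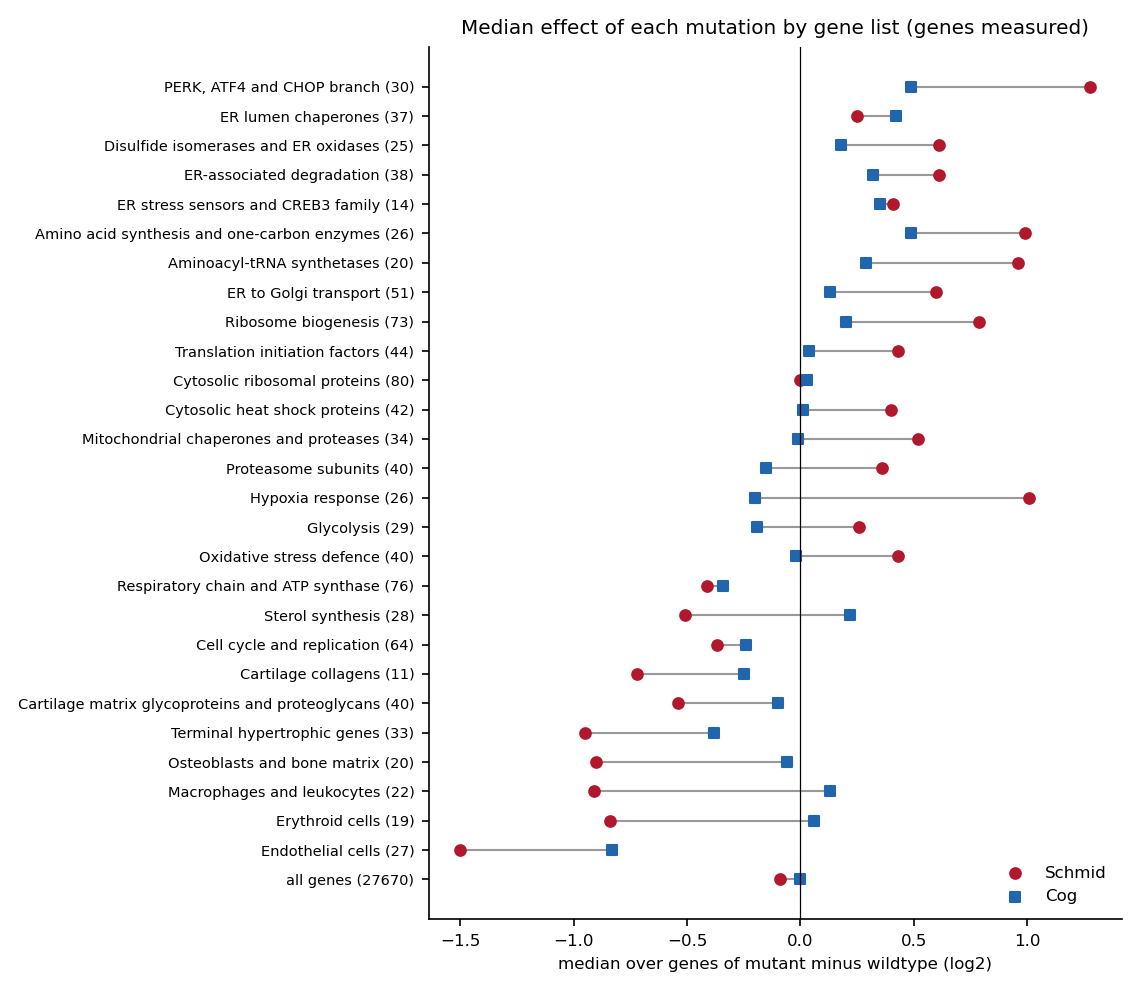
Median effect over the measured genes of each list (x axis, log2) in Schmid (red circles) and Cog (blue squares), with the number of genes in brackets and all 27670 genes in the last row. The ER lumen chaperones have the larger median in Cog (0.42 against 0.25), the hypoxia response has 1.01 in Schmid and -0.20 in Cog, and sterol synthesis has -0.51 in Schmid and 0.22 in Cog.

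Genes that fell in both mutants were fewer. Over the 57 genes the medians were -1.78 in Schmid and -1.39 in Cog, and the median difference was -0.42. The requirement of a call in both mutants largely sets these values. Schmid had the larger fall in 41, the difference was called for 6, all with Schmid larger, and its interval lay within 2-fold for 13. Without Wt (Cog) replicate 2 the count was 18. Nrgn, a calmodulin-binding protein, read 9.62, 9.70 and 9.88 in Schmid against 13.73, 13.98 and 13.61, and 11.52, 12.09 and 13.22 in Cog against 13.39, 14.30 and 14.02. It gave -4.04 and -1.63 with a difference of -2.41 (adjusted p = 0.013). Icam2, an endothelial adhesion molecule, gave -2.36 and -1.94, Fxyd2, a modulator of the sodium pump, -2.76 and -1.72, and Cdh15, a cadherin, -1.98 and -1.62, none with a called difference. Inhbb, a subunit of activin B, gave -2.04 and -1.38, and Id3, a target of BMP signalling, -1.49 and -1.12.

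More genes of the terminal hypertrophy list were called lower in Schmid than in Cog. Of 33 genes, 10 fell and 1 rose in Schmid, 3 fell in Cog, 2 of them in both, and the difference was called below in 5 and above in 1. The medians were -0.95 and -0.38. Among all genes 5.77% were called lower in Schmid and 0.842% in Cog, and the difference was called below for 7.07%. Ihh, the hedgehog ligand of prehypertrophic and early hypertrophic chondrocytes, read 13.34, 13.59 and 13.38 in Schmid, 16.49, 17.28 and 17.20 in Wt (Schmid), 16.10, 15.84 and 15.41 in Cog and 16.46, 17.40 and 17.60 in Wt (Cog). The Cog arrays lay between the Schmid arrays and the wildtypes. It fell in both, by 3.55 and 1.37 on the log2 scale, and the difference of -2.18 (interval -3.16 to -1.20, adjusted p = 0.0093) was called in 26 of 27 settings. A second Ihh probe gave -1.42 and -1.01 with a difference of -0.41 (adjusted p = 0.53), so the size of the difference depends on the probe. Slc37a2, a sugar-phosphate transporter of the ER, read 10.77, 9.79 and 10.42 in Schmid against 14.07, 14.11 and 14.27, and 12.80, 12.34 and 13.07 in Cog against 13.60, 13.89 and 13.79. It fell in both, at -3.82 and -1.02, and the difference of -2.80 (adjusted p = 0.0011) was called in all 28 settings. Alpl, the phosphatase that starts mineralization, stood at -1.11 in Schmid and 0.89 in Cog, a called difference of -2 (adjusted p = 0.010). Other defining hypertrophic markers had no call in either mutant or for the difference. In Schmid these stood at -0.02 (Col10a1), 0.36 (Spp1), -1.26 (Mmp13), -2.06 (Ibsp) and -0.95 (Panx3).

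Cartilage matrix genes were called lower in Schmid more often than the 5.77% of all genes. None was called in Cog, where 0.842% of all genes were lower. Of 40 matrix glycoproteins and proteoglycans, 12 fell and none rose in Schmid, and the difference was called below in 7, with medians of -0.54 and -0.10. Mgp, which restrains mineralization, read 13.44, 14.03 and 13.65 in Schmid, 17.55, 16.75 and 16.94 in Wt (Schmid), 17.07, 17.56 and 17.24 in Cog and 16.46, 17.41 and 17.70 in Wt (Cog). The Schmid arrays stood apart and the other 3 groups overlapped. Its effects of -3.38 and 0.10 gave a difference of -3.48 (interval -4.49 to -2.47, adjusted p = 0.0013), called in all 28 settings. Chad, a collagen-binding leucine-rich protein, gave -1.94 and 0.16 (difference -2.10, adjusted p = 0.0069), and Ecrg4, a secreted precursor, -2.52 and 0.02 (difference -2.54, adjusted p = 0.0021). Matn1, a bridging protein of young cartilage, gave -2.61 and -0.43, but its difference of -2.18 lost the call in 8 of 27 settings, including without Schmid replicate 2 or 3 and Wt (Cog) replicate 2 or 3. Of 11 cartilage collagens, 3 fell in Schmid and the difference was called for 1, Col11a2 (-1.59 and -0.25, adjusted p = 0.014). Ccn2, a matricellular growth factor, gave -2.28 and -0.23 (difference -2.05, adjusted p = 0.012).

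In the BMP and TGF-beta and the Wnt lists more genes fell than rose in Schmid. Over all genes, 5.77% were called lower and 5.8% higher in Schmid, and 0.842% lower and 1.9% higher in Cog. The difference was called below for 7.07% of all genes and above for 4.38%. Small counts, such as those of the IGF axis, lie near these shares. Of 51 BMP and TGF-beta genes, 9 fell and 1 rose in Schmid, 2 fell and 2 rose in Cog, and the difference was called below in 6. Tgfb3 read 12.57, 12.52 and 12.25 in Schmid and between 15.01 and 15.70 on the other 9 arrays, a difference of -2.73 (interval -3.27 to -2.19, adjusted p = 0.00041) from effects of -2.97 and -0.24. Ltbp3, which stores latent TGF-beta in the matrix, gave -1.81 and 0.53 (difference -2.33, adjusted p = 0.00074). Of 53 Wnt genes, 8 fell in Schmid and 1 rose in Cog, with the difference called below in 6 and above in 2. Tcf7l2, a Wnt effector, gave -2.73 and -0.30 (difference -2.42, adjusted p = 0.00081), and 2 of its other probes also fell in Schmid. Of 21 genes of the IGF axis, 2 fell and 1 rose in Schmid and 1 rose in Cog. Ghr, the growth hormone receptor, gave -2.98 and 0.10 (difference -3.08, adjusted p = 0.0081), with 2 other probes also called lower in Schmid. In the FGF receptor list, where 8 of 27 fell and 2 rose in Schmid and the difference was called below in 9 and above in 3, the median difference of -0.48 turned to 0.18 when only probes from array row 160 on were read, so that list has no settled direction. Of 64 cell cycle genes, 15 fell and 2 rose in Schmid and none was called in Cog; Mki67, a marker of cycling cells, gave -2.55 and -0.14 (difference -2.42, adjusted p = 0.018). Of 28 sterol synthesis genes, 3 fell in Schmid and 1 in Cog, and the difference was called below in 4, among them Dhcr7 (-2.02 and 0.28, adjusted p = 0.0087), and above in 1.

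Markers of other cells moved beside these genes. The hypertrophic zone borders on vessels and marrow, and in bulk tissue fewer cells of a type cannot be told apart from less RNA per cell. Across all genes 5.77% fell in Schmid and 0.842% in Cog, and the difference was called below for 7.07%. Of 27 endothelial genes, 16 fell and 1 rose in Schmid, 4 fell in Cog, 3 of them in both, and the difference was called below in 7. The summed signal of this list on the log2 scale was 15.05 to 15.37 in Schmid, 17.03 to 17.39 in Wt (Schmid), 16.26 to 16.65 in Cog and 17.15 to 17.56 in Wt (Cog), so both mutants lay below their wildtypes and Schmid lay further below. Cd93 gave -3.42 and -0.97 (difference -2.44, adjusted p = 0.0026), and Robo4 gave -2.57 and -1.73 with no called difference. The summed erythroid signal was 15.61 to 16.63 in Schmid, 18.07 to 20.04 in Wt (Schmid), 16.91 to 18.35 in Cog and 17.35 to 18.37 in Wt (Cog). Of its 19 genes, 3 fell in Schmid and none in Cog, the globin Hba-a1 at -3.47 and -0.40 among them. The summed macrophage signal was 15.98 to 16.17 in Schmid and 16.41 to 18.08 on the other 9 arrays, and 8 of its 22 genes fell in Schmid and none in Cog. The summed neutrophil signal was 16.11 to 17.07 in Schmid, 14.92 to 19.27 in Wt (Schmid), 15.71 to 17.39 in Cog and 14.92 to 15.21 in Wt (Cog). The osteoblast sum was 19.71 to 20.11 in Schmid and 20.31 to 21.07 on the other 9 arrays, and the osteoclast sum was 16.03 to 16.32 in Schmid and 16.72 to 17.86 on the other 9. The skeletal muscle sum was 16.56 to 18.62 in Schmid, 18.42 to 19.14 in Wt (Schmid), 16.63 to 17 in Cog and 17.27 to 19.54 in Wt (Cog). Their part in the lower matrix, growth factor and cell cycle signals of Schmid was not tested.

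Changes in Cog alone were fewer. Of 288 genes higher in Cog alone, the difference was called for 206, and of 163 lower in Cog alone, for 94. The genes with the largest such differences were chosen after their values were seen and are given as values only. Lifr, the receptor for leukemia inhibitory factor, read 14.57, 13.69 and 13.41 in Cog, 11.70, 9.84 and 10.76 in Wt (Cog), 10.53, 11.75 and 11.04 in Schmid and 11.22, 12.28 and 12.96 in Wt (Schmid), with effects of 3.12 in Cog and -1.05 in Schmid. Fbxo21, a ubiquitin ligase subunit, gave 2.90 and -0.82, Cdcp1, a surface protein, 2.50 and -1.12, and Pdlim4, an actin-binding protein, 2.79 and -0.83. In these 4 genes the wildtype groups differed by 1 to 1.38, Wt (Schmid) being higher. Among the genes lower in Cog alone, 3 are given, and all 3 of their probes hold the letters TCTCC or CTCCC (8.36% of all probes do), which are taken up with the opposite changes. Xcr1, a chemokine receptor, had an effect of -2.11 in Cog with Wt (Schmid) below Wt (Cog) by 2.82 on the log2 scale; its Cog arrays, at 11.31 to 12.01, were level with the Schmid arrays at 11.40 to 11.65. Cspg5, a proteoglycan of neural tissue, gave -1.66 with a wildtype gap of -2.75, and Cd3e, a T-cell receptor subunit, -1.57 with a gap of -1.43. Of the gene lists, autophagy held 1 gene raised in Cog alone, Ulk2, a kinase that starts autophagy, at 2.61 against -0.87 (difference -3.48, adjusted p = 0.00067), on a probe that also holds these letters.

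The difference of differences equals the gap between the mutant groups minus the gap between the wildtype groups. Of the 1212 genes with Schmid above Cog, 608 (50.2%) had a called gap between the mutant groups alone, 40 between the wildtype groups alone, 7 in both and 557 (46%) in neither. Of the 1956 with Schmid below Cog, the mutants alone accounted for 1069 (54.7%), the wildtypes alone for 39, both for 15 and neither for 831 (42.5%). Between the wildtype groups themselves 153 genes were called (0.553%), and between the mutant groups 2706 (9.78%). All Schmid arrays were scanned on 1 day and all Cog arrays on the other, so the mutant gap cannot be told apart from scan day. With scan day as a block, the differences with a called mutant gap went from 1701 to 371. Wt (Schmid) replicate 3 is the only array scanned on another day than the rest of its group. The block therefore rests on that array and the mutant gap is estimated with little precision, so the fall does not measure the part of scan day. The median gap among genes with Schmid above Cog was 1.02 between the mutants and -0.44 between the wildtypes, and among those below it was -1.08 and 0.50, where choosing genes by the difference itself favours gaps of these signs.

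Genes that moved in opposite directions nearly all went down in Schmid and up in Cog. Of 118 genes called in both with opposite signs, 105 (0.379% of all genes) were lower in Schmid and higher in Cog, with medians of -1.66 and 1.42, and 13 (0.047%) were the reverse. Without Wt (Cog) replicate 2 the 118 became 32, and without Wt (Schmid) replicate 1 they became 220. Hecw1, a ubiquitin ligase of neurons, read 12.02, 11.79 and 11.37 in Schmid, 13.67, 14.87 and 15.17 in Wt (Schmid), 15.93, 15.51 and 15.92 in Cog and 13.56, 12.63 and 12.80 in Wt (Cog). Its effects of -2.85 and 2.80 gave the largest difference of this direction among genes well above background on all 12 arrays, -5.64 (adjusted p = 0.00047), but its other 4 probes were not above background on any array. Syt16, a synaptotagmin, gave -2.95 and 2.58, and Itga3, an integrin chain, -1.92 and 2.58, while the other probes of Itga3 stood between -0.21 and 0.08 in Schmid and between -0.39 and 0.08 in Cog. Of the 46 such genes with another probe, 1 (Cyth4) had another probe called alike. Uap1l1, related to an enzyme that makes UDP-N-acetylglucosamine, was the one gene of the reverse pattern well above background on all 12 arrays. It read 14.26, 14.18 and 13.62 in Schmid, 12.25, 12.61 and 12.66 in Wt (Schmid), 11.21, 11.82 and 9.94 in Cog and 13.12, 12.74 and 12.75 in Wt (Cog), with effects of 1.52 and -1.88 and a difference of 3.40 (adjusted p = 0.0035) called in all 28 settings.

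These probes shared a place on the array and a short sequence. Of the 119 probes lower in Schmid and higher in Cog, which are 0.289% of all probes, 82.4% lay before array row 160, in rows that hold 29.6% of all probes. The letters TCTCC occurred in 53.8% of them and in 6.22% of all probes, CTCCC in 48.7% and 3.37%, and TCTCCC in 35.3% and 1.11%, whereas GGAGA, the other strand of TCTCC, occurred in 5.88% and 8.20%. The 2 features went together: a difference below 0 was called for 38.7% of probes with TCTCC in rows before 160, 12.5% without it in those rows, 7.81% with it in other rows and 2.07% with neither. Of probes with a called difference but no call in both mutants, 70.4% with Schmid below Cog and 15.7% with Schmid above lay before row 160. Among genes named above, Ihh, Matn1, Ccn2, Tcf7l2, Ghr, Nrgn, Derl3, Lifr, Pdlim4 and Slc38a7 were read in those rows. Mgp, Chad, Ecrg4, Tgfb3 and Ltbp3 were read in later rows, but the Ltbp3 probe holds TCTCC or CTCCC. The probes of Slc38a7, Slc7a1 and Rnf5 hold these letters too. Of the 8 genes with the largest opposite changes, 6 held TCTCC or CTCCC (8.36% of all probes do), and all 8 lay in rows 24 to 139. Stretches of 30 bases from 5 of their probes and from 2 further probes with large differences are shown, in probe orientation, with the letters in capitals. In the order shown, RefSeq places their genes on chromosomes 13, 2, 7, 6, 17, 7 and 4.
Hecw1: aagcattatctctTCTCCatataagaaagt
Epb41l1: tcataatctctcaCTCCCcaaaccccttct
Sptbn4: aactgtcttcctcTCTCCTCCCcgattcta
Tmem139: gaccatatttctTCTCCCacagagacaatg
2410017I17Rik: cttttgtctgtagCTCCCagtacacagggc
Tmem41b: tggatgttttctTCTCCCagtagagagtaa
Tbc1d2: ccacaatcctttTCTCCCctacccaagttt
The genes have unrelated known roles, such as a cytoskeletal adaptor (Epb41l1), a beta-spectrin (Sptbn4), a lipid scramblase of the ER (Tmem41b) and a Rab GTPase regulator (Tbc1d2).

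**Figure D5:**
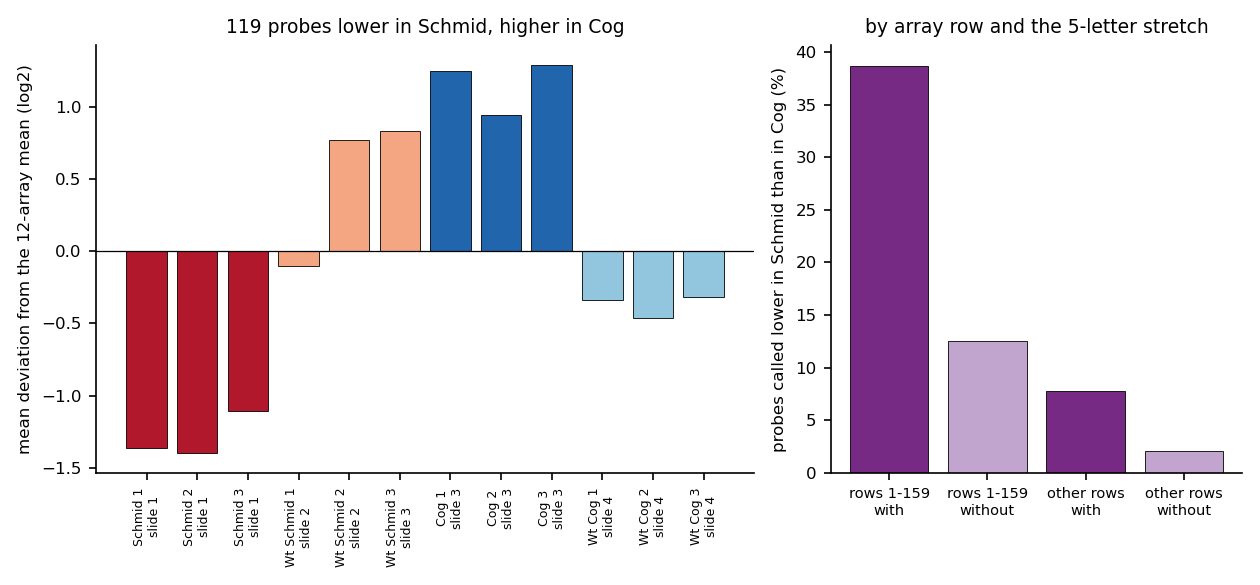
Left, mean deviation from the 12-array mean (y axis, log2) of the 119 probes lower in Schmid and higher in Cog, one bar per array with its slide; right, share of probes called lower in Schmid than in Cog (y axis, percent) by array row and by the letters TCTCC. The mean is lowest on slide 1 (-1.11 to -1.40) and highest on the 3 Cog arrays of slide 3 (0.94 to 1.29), Wt (Schmid) replicate 3 on that slide is at 0.83, and the share is highest, 38.7%, for probes with the letters in rows before 160.

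The level of these probes followed the slides as well as the genotypes. Their mean deviation was -1.36, -1.40 and -1.11 in Schmid, -0.10, 0.77 and 0.83 in Wt (Schmid), 1.25, 0.94 and 1.29 in Cog and -0.34, -0.46 and -0.32 in Wt (Cog). The Schmid arrays, lowest here, also had the lowest negative control signal. When the trend along rows was removed the 118 genes became 60, with rows from 160 on alone they were 27, and without probes holding the letters they were 46. The part of array position, probe letters and slide in these changes was not tested, and slide cannot be told apart from genotype. The split of the whole comparison moved with the same choice: 38.3% of the genes with a called difference had Schmid above Cog over the whole array and 61.9% (773 against 476) in rows from 160 on, and the share was 27.5% with the scanner's processed signal and 22.2% with that signal set to a common 75th percentile. That last scaling moved the median difference of all genes from -0.05 to -0.60, and normexp at a common 75th percentile moved it to -0.30, so changes in a common direction are relative to those medians.

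Some genes with large differences were not above background in a whole group and are given as bounds, the bright group's mean over the higher of the dim probe's own signal and the lowest signal well above background. Slurp1, a small secreted protein of epithelia, was at least 6.88-fold higher in Schmid than in its wildtype, and Adh7, an alcohol dehydrogenase, at least 2.43-fold, with neither Cog group above background for Adh7. Prim2, the large primase subunit, was at least 2.87-fold higher in Schmid. In Cog, 4930539N22Rik was at least 9.81-fold higher and the splicing factor gene Sf3b1 at this probe at least 6.82-fold higher than in its wildtype, while Schmid and its wildtype were measured for both, at differences of -0.21 and -0.22.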

How the data were processed

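Hypertrophic zone RNA of 12 mice was hybridized to 1-colour Agilent arrays, 1 mouse per array and 3 per group, and the authors deposited a scanner table for each array (Agilent Feature Extraction 9.5.3). Its mean spot and background signals are deposited intensity values before normalization. A table of the authors' processed values on the log2 scale was also deposited and served as an alternative. Following the methods of the study, the intensities were background corrected by normexp (offset 50), quantile normalized and put on the log2 scale in limma 3.58.1 (R 4.3.3, with statmod 1.5.0). Outlier-flagged spots (99.8% of the 43379 non-control spots were kept) and control spots were left out, and spots of one probe were averaged. No probe was left out for being dim. One model with 4 group means gave the effect of each mutant and their difference, with empirical Bayes moderation and Benjamini-Hochberg adjustment over all 41174 probes. Calls needed a 2-fold change and a two-sided adjusted p no higher than 0.05. Where a gene had several probes the brightest was used, and disagreeing probes are given. Current symbols were found in a RefSeq table by accession for 22951 probes and by gene name or synonym for 9768. The other 8455 kept the name in the files, or the probe name where the files gave none. RefSeq gene positions are not printed because the array was designed on another build.

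Named genes were the 10 largest called differences each way, the genes changed most in both mutants or oppositely, up to 4 called differences and 4 shared changes in each of 55 lists, the genes of the 2 targeted proteins, the ER stress genes the study names, and bounds for genes dim in a whole group. Of 1805 list entries, 1787 were measured. The members and lists were chosen with earlier results of these data known. Replicate numbers in the labels did not pair the mice: correlations of deviations between same-numbered mice ran from -0.116 to 0.193 within the mouse lines. On simulated data for the difference between the mutants, run on 41141 probes, a log2 change of 1.5 was called for 24% of the probes given it, one of 2 for 40%, one of 3 for 72% and one of 4 for 90%, with 7 unchanged probes called. The simulated noise had no slide, scan or row effect, few probes were changed, and all of those were well above background on 12 arrays. These rates therefore do not carry over to the real arrays. Alternatives varied the background correction, scaling, filter, variance model, position trend, threshold and arrays used. The settings counted for single genes leave out the test against a 2-fold difference, adjusted p alone and all probes. Genes read before array row 160 have no value in the setting of rows from 160 on. Scan day as a block gave the same counts of called differences as leaving out Wt (Schmid) replicate 3. The number of arrays, not depth, sets the precision.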

Additional observations from a re-analysis of the deposited data

Results flagged for a closer look

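Each result here was picked because the Schmid effect and the Cog effect differed by limma's test of the difference itself. Groups of 3 are too small for a check on single far-off arrays. The difference was called for 1212 genes with Schmid above Cog and for 1956 with Schmid below Cog. The largest differences on the log2 scale with Schmid above were 5.82 for Fgf21, 3.84 for Cdsn, 3.42 for Plet1, 3.40 for Uap1l1, 3.24 for Inhbe, 3.22 for Car6, 3.01 for Mt1, 2.93 for Mt2, 2.85 for Psat1 and 2.81 for Sft2d2. The largest with Schmid below, apart from the transgene's own product, were -5.64 for Hecw1, -5.54 for Syt16, -5.32 for BG963265, -5.17 for Tmem41b, -5.06 for Vmn1r47, -4.99 for Tbc1d2, -4.92 for AK019581, -4.80 for Olfr1312, -4.76 for Pvt1 and -4.72 for Sptbn4. Among the genes with the largest opposite changes the difference was -4.67 for 2410017I17Rik, -4.66 for Epb41l1, -4.66 for Tmem139 and -4.58 for 9130011L11Rik. Of the genes that rose or fell in both mutants, Derl3 differed by -1.46, Sdf2l1 by -1.05 and Nrgn by -2.41. Tg, which the transgene supplies, differed by -8.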

How the results depend on the processing

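The counts below are, in order of mention, genes with Schmid above Cog (1212), Schmid below Cog (1956), higher in both (132), lower in both (57), opposite (118), and differences with a called gap between the mutant groups (1701). The processed signal, quantile normalized, gave 3202 below, 232 opposite and 3134 with a mutant gap. Normexp at a common 75th percentile gave 74 opposite and 2638 with a mutant gap, and the processed signal so scaled gave 547 above, 62 higher in both, 17 lower in both and 50 opposite. Probes well above background on all 12 arrays gave 409 above, 1012 below and 1011 with a mutant gap. Array weights gave 1915 above, 242 higher in both, 188 lower in both and 179 opposite, and slide as a random block (correlation -0.122) gave 1965, 210, 131 and 188. Opposite genes numbered 60 without the row trend and 69 without row and GC trends, and 66 of these 69 were among the 118. A test against 2-fold gave 44 above, 144 below, 10 higher in both, 0 lower in both, 0 opposite and 102 with a mutant gap, and adjusted p alone gave 3193 below, 218 higher in both, 121 lower in both, 421 opposite and 4007 with a mutant gap. Of the alternatives added after seeing the data, scan day as a block gave 371 with a mutant gap, rows from 160 on gave 773 above, 476 below, 35 lower in both, 27 opposite and 598 with a mutant gap, and probes without the letters gave 46 opposite; the cause was not tested.

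Leaving out each array in turn gave 764 (without Wt (Cog) replicate 2) to 1975 (without Wt (Schmid) replicate 1) above, 1547 (without Wt (Schmid) replicate 2) to 2538 (without Wt (Schmid) replicate 1) below, 62 to 157 higher in both, 18 to 92 lower in both, 32 to 220 opposite and 1248 to 2072 with a mutant gap. With the replicate block, whose numbers do not pair these mice, the counts were 1196, 1916, 132, 60, 108 and 1678. Of 199 named genes with a called difference, 103 kept it in every alternative that gave a value, 58 lost it in 5 or more, and 2 turned sign: Car5a, at -0.73 with the processed signal, quantile normalized, and -1.24 with it at a common 75th percentile, and Wnt10a, at -0.54 with the latter. Signal near background limits the dim genes, and 4 slides that follow the groups limit the rest.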
